A study of Rattus norvegicus with 8 samples.

Results

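Copying a genome takes a set of enzymes that resting liver hardly uses. Before S phase, the origin recognition complex, Cdc6 and Cdt1 load the MCM helicase onto DNA. Cdc45 and the GINS complex then switch the helicase on, polymerases alpha, delta and epsilon copy the strands behind it, and the clamp PCNA holds the polymerases in place. Most of these genes are switched on as a group by E2F transcription factors when a cell leaves quiescence. Rat hepatocytes, which rarely divide in the adult, enter S phase about together when part of the liver is removed.

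The genes described here are 50 genes of this machinery, chosen by name: 10 of origin licensing and firing, 5 partners of the MCM helicase, 9 of the polymerases and primase, 9 of the clamp, clamp loader and single-strand binding protein RPA, 4 of Okazaki fragment processing, 3 of nucleotide supply, 8 of chromatin assembly and DNA methylation, and 2 E2F factors. The 6 MCM2-7 genes were kept apart. All 50 had a probe set annotated to that gene alone, of 18166 genes that had one. Where a gene had several, the one with the highest mean was used. Of the 50, 41 had a mean log2 level of at least 5 and were tested among 8690 genes. The other 9 were Orc1, Cdc6, Cdc7, Gins2, Gins3, Prim2, Pole2, Dna2 and E2f1.

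Liver of male Sprague-Dawley rats was profiled on 8 Affymetrix arrays. The animals had received ethanol chronically or a carbohydrate control diet by pair feeding, which matches intake between animals. All rats lost 70% of the liver by partial hepatectomy (PHx). Tissue was taken at the operation (0 h) and from the remnant at 24 h. Some rats had received AM21, an oligonucleotide antisense to the microRNA miR-21 and modified with locked nucleic acids, at 7.5 mg/kg into the peritoneum 72 h before PHx and again right after it. The others were untreated. No group given a control oligonucleotide and no group with sham surgery was analysed here, and the age of the animals is not given in the sources used here. RNA was pooled from 3 rats (AM21) or 4 rats (untreated), so each of the 4 pools, measured at both times, gave 1 array per time. The spread between single animals was therefore not measured. The AM21 and untreated rats carry separate runs of animal numbers, so treatment and cohort cannot be told apart. The study asked what miR-21 does during liver regrowth in ethanol-fed animals.

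AM21 is directed against the rat microRNA below, shown so that the reagent can be identified. It lies at chr10:71902653-71902674 on the minus strand (RefSeq, build GRCr8), and capitals mark the seed, bases 2 to 8. The arrays analysed here give no value for it.

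rno-miR-21-5p: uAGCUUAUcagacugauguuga

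The promoters of these genes carried the E2F letters far more often than promoters at large. A window of 250 bases before and 50 bases after each gene start (RefSeq, build GRCr8) was searched on both strands for TTTCCCGC, TTTCGCGC, TTTGCCGC or TTTGGCGC, the core to which E2F proteins are known to bind. Of the 43 replication genes with a window, 17 held such a match (39.5%), against 2.25% of 27457 promoters and 4.46% of the 7279 tested genes that had a window. This was not particular to these genes. Such a match was in 5 of 5 windows of MCM2-7 genes and in 12 of 31 of other replication genes (38.7%). It was in 4 of 16 windows of the E2F and pocket protein families and the G1 to S transition (25.0%). Of the 50 genes described here, Orc1, Cdc6, Gins4, Rpa3, Rrm2, E2f1 and E2f8 had no entry. The 80 bases just before the start are printed for the 6 genes whose matches lie wholly within them, with the E2F letters in capitals. They are Dtl (chr13:105685922-105686001, minus strand), Gins1 (chr3:160184840-160184919, plus strand), Gins3 (chr19:9434680-9434759, minus strand), Tyms (chr9:120776084-120776163, minus strand), Hells (chr1:246114049-246114128, plus strand) and Cdca7 (chr3:77730235-77730314, plus strand).

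Dtl: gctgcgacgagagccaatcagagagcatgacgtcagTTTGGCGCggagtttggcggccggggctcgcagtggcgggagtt
Gins1: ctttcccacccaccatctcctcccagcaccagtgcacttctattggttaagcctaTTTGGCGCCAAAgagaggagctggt
Gins3: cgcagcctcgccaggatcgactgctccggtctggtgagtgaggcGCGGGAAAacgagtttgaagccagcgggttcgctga
Tyms: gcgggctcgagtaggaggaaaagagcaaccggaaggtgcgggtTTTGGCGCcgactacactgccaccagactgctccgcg
Hells: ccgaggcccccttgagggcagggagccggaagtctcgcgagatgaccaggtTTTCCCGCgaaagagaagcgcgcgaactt
Cdca7: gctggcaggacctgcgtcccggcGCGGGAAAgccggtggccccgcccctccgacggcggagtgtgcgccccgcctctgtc

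In Gins1 the letters occur on both strands and overlap, with first bases 25 and 21 bases before the start. In Gins3 and Cdca7 they read on the opposite strand, as GCGGGAAA. The matches in Gmnn, Cdt1, Rpa2, Lig1, Pole2, Dnmt1 and Pold3 lay after the start, and those of Rfc3 lay on either side of it. CCAAT, the letters of the box bound by NF-Y, was in 23 of 43 windows (53.5%), against 37.7% of all promoters. The CHR letters TTTGAA or TTCGAA, which are known from promoters of mitotic genes, were in 8 of 43 (18.6%), against 19.5%. Among 26 genes of G2 and mitosis with a window the order was the other way, with E2F letters in 1 and CHR letters in 20 (76.9%). A match is a description of the letters and not of a bound site.

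**Figure D1:**
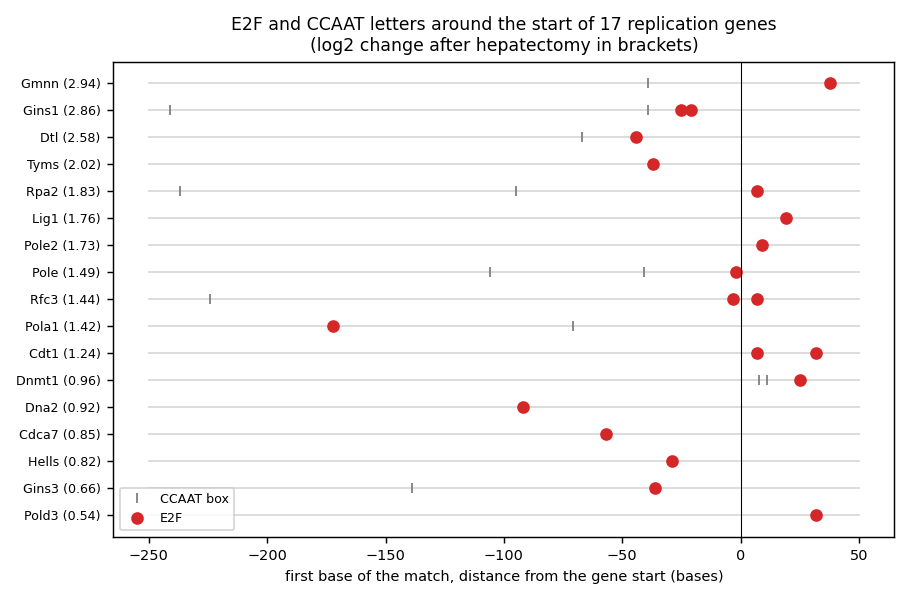
Position of the E2F letters (red points) and CCAAT (grey ticks) in the 17 replication genes that held E2F letters, in bases from the gene start on the horizontal axis. Genes are ordered by their log2 change after PHx, given in brackets, from 2.94 for Gmnn to 0.54 for Pold3, and most E2F matches lie within 60 bases of the start.

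The first comparison asked how the replication genes changed in the day after PHx. Nearly the whole machinery was higher at 24 h. With no level filter, so that all 50 genes counted, 47 rose (limma, adjusted p under 0.05), against 5.65% of 18166 genes called higher, and 0 fell, against 4.43% called lower. The change was above 0 in 50 of 50, with a median of 1.43 on the log2 scale, while the median over all genes was -0.02. For 48 of the 50 genes every 24 h array was above every 0 h array (10.0% of all genes), and the reverse held for 0 (8.15%). Of the 50, 24 were at least 2-fold higher in all 4 pools (1.14% of all genes). The genes that did not pass were Rfc1, Rnaseh2a and Gins2.

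RMA values carry no detection call at any level, and the minimum of 5 was a setting chosen here. The size of a change from a level under 5 is uncertain. Of the 41 tested genes, 26 had a mean of at least 5 already at 0 h, and 24 of those rose, with a median change of 1.38. The other 15 reached the minimum only through their 24 h level. A gene admitted in that way had to differ between the times, so their calls are counts only. Of all 41, 39 rose, where 15.3% of the 8690 tested genes did. In liver tissue, fewer cells of a type and less RNA per cell cannot be told apart.

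**Figure D2:**
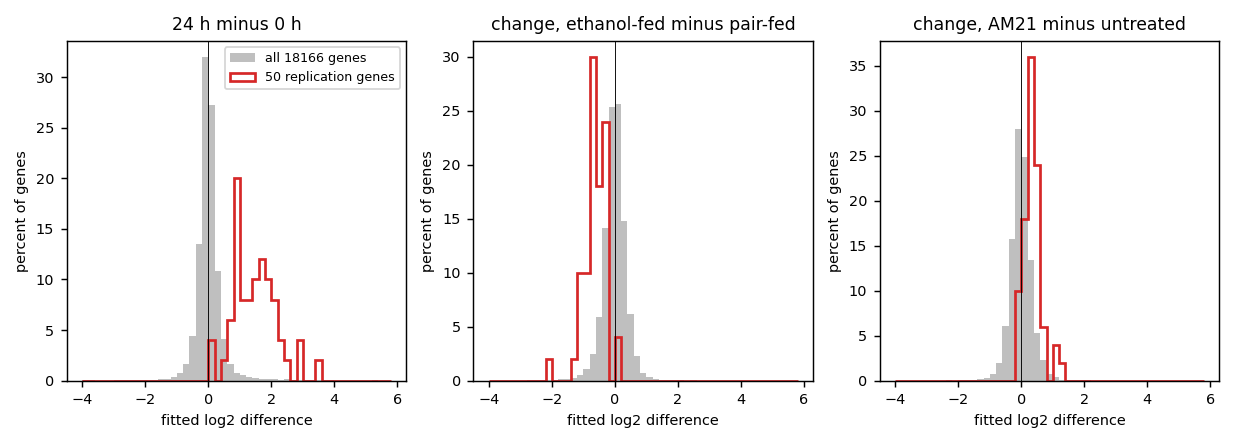
Share of genes in percent (vertical axis) by fitted log2 difference (horizontal axis) for all 18166 genes (grey) and the 50 replication genes (red outline). The replication genes lie to the right of all genes in the change after PHx (medians 1.43 and -0.02), to the left in the difference of that change between ethanol-fed and pair-fed pools (-0.62 and 0.00), and slightly to the right in its difference between AM21 and untreated pools.

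Values on single arrays are log2 levels, and they are given below in 1 fixed order: pair-fed rats without and with AM21, then ethanol-fed rats without and with AM21. Changes are log2 differences over 4 matched pools ± the moderated SE of limma, which also draws on the variance of all other genes. For genes that differed most between pools, such as Rrm2 and Dbf4, it is smaller than the 4 pools alone would give. Adjusted p-values are from limma over the 8690 tested genes or, for genes whose mean at 0 h was under 5, over all 18166 genes with no level filter.

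Origin licensing and firing held 10 genes, and all 10 rose, with a median change of 1.55. Gmnn, geminin, which blocks Cdt1 so that no origin is licensed again within one S phase, read 4.50, 4.40, 5.12 and 4.44 at 0 h and 7.47, 8.10, 7.25 and 7.40 at 24 h. All 24 h arrays stood more than 2 units above the highest 0 h array, and the change was 2.94 ± 0.23 (adjusted p = 0.00156). Dtl, the substrate receptor that sends Cdt1 to destruction during S phase, read 3.88, 3.80, 4.20 and 3.98 at 0 h and 6.78, 7.17, 6.03 and 6.20 at 24 h. It rose by 2.58 ± 0.24 (adjusted p = 0.00197), from 0 h levels that were all under 5. Both are brakes on licensing, and they had the largest changes of the class. Their target Cdt1 rose by 1.24 ± 0.16 and its partner Cdc6 by 2.24 ± 0.19 (adjusted p = 0.00437 and 0.00176).

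The origin recognition subunits Orc6 and Orc1 rose by 1.62 ± 0.10 and 0.71 ± 0.13. Orc1 stayed under 5 on all 8 arrays. Wdhd1, which couples the helicase to polymerase alpha, rose by 1.64 ± 0.16, and Mcm10, a factor for origin firing, by 1.07 ± 0.09. Cdc7 and its activator Dbf4 form the kinase that fires origins. Cdc7 rose by 0.99 ± 0.16 and Dbf4 by 1.49 ± 0.34. Dbf4 differed most between pools within the class, with changes of 1.47, 2.90, 0.50 and 1.09.

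Of the 5 partners of the MCM helicase 4 rose, and the median change was 1.89. Gins1, a GINS subunit, read 4.11, 4.75, 5.28 and 4.68 at 0 h and 7.49, 8.22, 7.22 and 7.34 at 24 h, a change of 2.86 ± 0.25 (adjusted p = 0.00176). Gins4 read 4.96, 4.83, 5.04 and 5.18 at 0 h and 7.06, 7.65, 6.55 and 6.57 at 24 h, a change of 1.96 ± 0.23 (adjusted p = 0.00250). The times did not overlap for either gene. Cdc45 rose by 1.89 ± 0.19. The 4 GINS subunits form one complex in equal numbers, but the measured changes of the other 2 were small. Gins3 rose by 0.66 ± 0.12, and Gins2, at 0.81 ± 0.23, was not called (adjusted p = 0.0740). Gins2 read 4.48, 3.76, 4.69 and 4.78 at 0 h and 5.13, 5.54, 5.19 and 5.09 at 24 h, so its 0 h level was low on the pair-fed AM21 array. Both Gins2 and Gins3 lay near the level minimum.

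All 9 polymerase and primase genes rose, with a median of 1.24. Prim1, the catalytic subunit of primase, which lays the RNA primers, read 6.27, 6.43, 7.17 and 7.08 at 0 h and 8.44, 8.99, 8.47 and 8.58 at 24 h. It rose by 1.88 ± 0.21 (adjusted p = 0.00217). Its ethanol-fed arrays were above the pair-fed arrays at 0 h, and at 24 h the 4 arrays lay closer together. Its second probe set gave the same order of the times, 6.19 to 6.91 at 0 h and 8.12 to 8.72 at 24 h. Pole2, an accessory subunit of polymerase epsilon, read 3.28, 3.05, 3.29 and 2.67 at 0 h and 5.06, 5.68, 4.26 and 4.21 at 24 h, and it rose by 1.73 ± 0.24 (adjusted p = 0.00581). Only the pair-fed 24 h arrays of Pole2 were above 5.

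Among the catalytic subunits, Pole of polymerase epsilon rose by 1.49 ± 0.21, Pola1 of polymerase alpha by 1.42 ± 0.15 and Pold1 of polymerase delta by 0.90 ± 0.18. Pola2 and Pold2, accessory subunits of polymerases alpha and delta, rose by 1.17 ± 0.17 and 1.24 ± 0.20, and the large primase subunit Prim2 by 1.06 ± 0.17. Pold3, a further subunit of polymerase delta, had the smallest rise of the class at 0.54 ± 0.09. It was already at 7.04 to 7.48 at 0 h. Pold1 went its own way between pools, with changes of 0.97, 0.80, 0.35 and 1.47 and the largest in the ethanol-fed AM21 pool.

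Of the 9 genes of clamp, clamp loader and RPA 8 rose, with a median of 1.02. Pcna, the sliding clamp, read 7.81, 7.72, 8.12 and 7.95 at 0 h and 10.01, 10.44, 9.73 and 9.86 at 24 h. Its arrays lay close together within each time, and it rose by 2.11 ± 0.18 (4.31-fold, adjusted p = 0.00145). Rpa2, the middle subunit of RPA, read 5.62, 5.15, 5.55 and 5.59 at 0 h and 7.47, 7.76, 6.89 and 7.12 at 24 h, a rise of 1.83 ± 0.20 (adjusted p = 0.00210). The other RPA subunits rose less, Rpa1 by 0.86 ± 0.15 and Rpa3 by 0.69 ± 0.14.

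The clamp loader was uneven. Rfc4, Rfc3, Rfc5 and Rfc2, its small subunits, rose by 1.77 ± 0.15, 1.44 ± 0.20, 1.02 ± 0.16 and 0.86 ± 0.18. Rfc1, its large subunit, read 7.85, 7.64, 7.90 and 8.05 at 0 h and 7.91, 7.90, 7.78 and 7.95 at 24 h. The times overlapped, and the change of 0.03 ± 0.10 did not pass (adjusted p = 0.867). With each array centred on its median the Rfc1 change was -0.03, and its sign also turned without the pair-fed AM21 pool (-0.05).

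Okazaki fragment processing showed the same kind of split. Lig1, the ligase that joins the fragments, read 5.35, 5.93, 5.94 and 5.87 at 0 h and 7.47, 7.96, 7.35 and 7.36 at 24 h, a rise of 1.76 ± 0.15 (adjusted p = 0.00142). Fen1, the flap endonuclease, read 4.52, 4.24, 4.32 and 4.12 at 0 h and 5.86, 6.26, 5.80 and 5.58 at 24 h, a rise of 1.57 ± 0.14 (adjusted p = 0.00176). For both genes all 24 h arrays lay more than 1 unit above all 0 h arrays. Dna2, a nuclease for long flaps, rose by 0.92 ± 0.16. Rnaseh2a, the catalytic subunit of RNase H2, read 5.86, 5.60, 5.75 and 5.48 at 0 h and 5.83, 6.10, 5.69 and 5.38 at 24 h. Its only higher 24 h value was in the pair-fed AM21 pool, and its change of 0.08 ± 0.12 did not pass (adjusted p = 0.672). Without that pool the value was -0.06.

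The 3 genes of nucleotide supply all rose, with a median of 2.02. Rrm2, the small subunit of ribonucleotide reductase, which makes deoxyribonucleotides, had the largest change of the 50 genes, 3.50 ± 0.51 (11.3-fold, adjusted p = 0.00451). It read 7.42, 5.85, 8.69 and 8.23 at 0 h and 11.11, 11.35, 10.76 and 10.97 at 24 h. Its 0 h arrays spread over almost 3 units while its 24 h arrays lay within 0.6 of each other. Tyms, thymidylate synthase, read 6.72, 6.68, 7.15 and 7.14 at 0 h and 9.06, 9.43, 8.58 and 8.69 at 24 h, and it rose by 2.02 ± 0.23 (adjusted p = 0.00217). Dut, which clears dUTP, rose by 1.25 ± 0.15.

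All 8 genes of chromatin assembly and DNA methylation rose, with a median of 1.58. Uhrf1, which brings the methyltransferase Dnmt1 to newly copied DNA, read 4.30, 3.80, 4.87 and 4.37 at 0 h and 6.38, 7.34, 6.13 and 6.42 at 24 h. It rose by 2.23 ± 0.32 (adjusted p = 0.00634), with the highest 24 h value and the lowest 0 h value both in the pair-fed AM21 pool. Chaf1a, the large subunit of the histone chaperone CAF-1, read 4.41, 3.80, 4.59 and 4.06 at 0 h and 6.41, 6.61, 6.08 and 6.13 at 24 h, a rise of 2.09 ± 0.20 (adjusted p = 0.00202). Its partner Chaf1b rose by 1.85 ± 0.22.

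Asf1b, a chaperone of histones H3 and H4, rose by 2.05 ± 0.11 (adjusted p = 5.50e-04), and its changes in the 4 pools were within 0.4 of each other. Nasp, a histone chaperone, rose by 1.31 ± 0.12. Dnmt1 itself rose by 0.96 ± 0.12, less than Uhrf1 in every pool. The chromatin remodeller Hells and its partner Cdca7 rose by 0.82 ± 0.13 and 0.85 ± 0.19. Cdca7 had a change of 0.10 in the ethanol-fed untreated pool and of 0.93 to 1.25 in the other pools.

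Both E2F factors rose. E2f8, an atypical E2F that represses S phase genes, read 4.76, 5.44, 5.13 and 5.04 at 0 h and 6.37, 7.39, 6.46 and 6.69 at 24 h, a rise of 1.63 ± 0.12 (adjusted p = 0.00125). E2f1, an activator, read 4.12, 4.37, 4.15 and 4.52 at 0 h and 5.25, 5.68, 4.90 and 5.04 at 24 h, a rise of 0.93 ± 0.15 (adjusted p = 0.00972). The repressor thus had the larger measured change on this array, and E2f1 was near the level minimum.

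**Figure D3:**
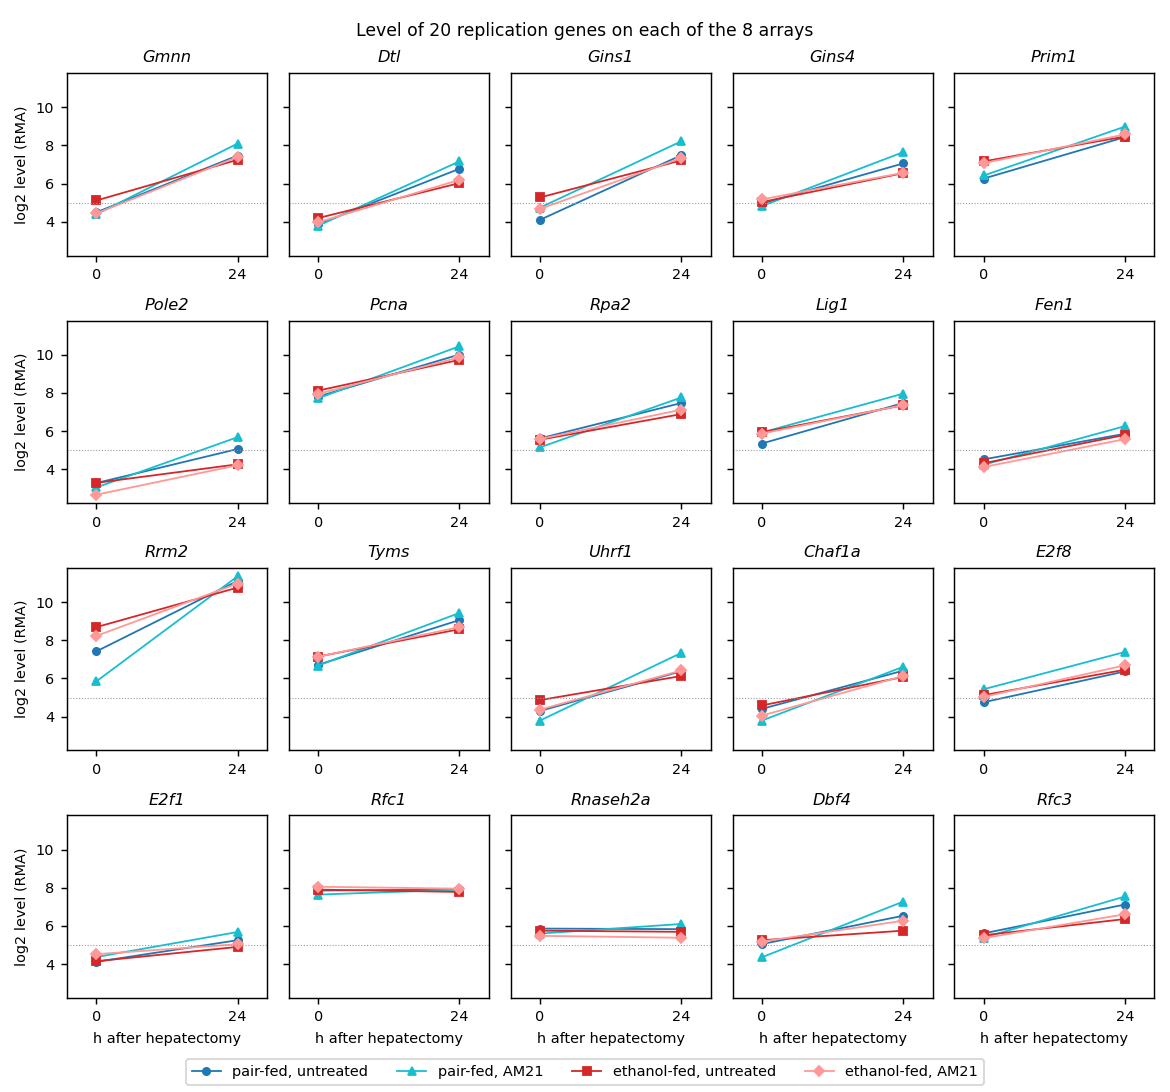
Log2 level (vertical axis) at 0 h and 24 h after PHx (horizontal axis) for 20 replication genes, with 1 line for each of the 4 pools. Lines of 18 genes climb in every pool, those of Rfc1 and Rnaseh2a are flat, and the Rrm2 lines start between 5.85 and 8.69 and end between 10.76 and 11.35.

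A few of these calls were lost when pools were left out, which also lowered the residual degrees of freedom. Of the 39 genes called, Cdca7, Dbf4, Rfc2 and Rpa3 did not pass without the pair-fed untreated pool (adjusted p from 0.0545 to 0.0784), Cdca7, Rfc2 and Rpa3 not without the pair-fed AM21 pool, and Cdca7 and Dbf4 not without the ethanol-fed AM21 pool. Within the ethanol-fed pools alone Cdca7, Pold1, Rfc2 and Rpa3 did not pass, and within the pair-fed pools alone Pold3 did not.

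Most related genes that passed also rose. All 6 MCM2-7 genes rose, with a median of 2.29. Of 28 tested further genes of replication 20 rose and 8 did not pass (median 0.62), and of 20 tested genes of the E2F and pocket protein families and the G1 to S transition 13 rose and 1 fell (median 0.76). In the list for G2 and mitosis 24 of 24 tested genes rose, with a median of 2.86. The 0 h medians of that list were 4.28 to 5.44, near the level minimum. How many of its genes reached the minimum only through their 24 h level is not given here, so the 24 is a count only. Of the tested genes with a promoter window, 106 of 325 with E2F letters were called higher (32.6%) and 1033 of 6954 without them (14.9%). These counts include genes described here, 14 with the letters, all called higher, and 23 without, of which 21 were. Related replication genes and genes that reached the level minimum only through their 24 h level were not taken out either. Within the replication genes the letters did not separate larger from smaller changes. The 14 tested genes with E2F letters had a median change of 1.47 and the 23 without them 1.49.

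Markers of liver cell types were read on the same arrays. The 6 hepatocyte markers measured, among them Alb, had medians of 11.87 to 12.03 on every array, and 1 of them fell with PHx. The 4 tested markers of neutrophils and monocytes had medians of 5.19 to 5.68 at 0 h and 6.12 to 7.64 at 24 h, and 2 rose. Mpo and Csf3r were under the level minimum. The 8 Kupffer cell markers had medians of 7.48 to 8.21 at 0 h and 7.59 to 8.33 at 24 h, and 1 rose and 2 fell. Of 9 lymphocyte markers 2 passed the level minimum, with medians of 6.45 to 6.82 at 0 h and 6.14 to 6.54 at 24 h, 1 of which fell, and Cd3d, Cd3e, Cd8a, Cd79b, Ms4a1 and Nkg7 were under it. Stellate cell markers (5 tested) had medians of 5.91 to 6.70 and 6.69 to 6.93 (2 rose and 2 fell), sinusoidal endothelial markers (5 tested) of 7.25 to 7.83 and 6.93 to 7.32 (2 fell), cholangiocyte markers (2 tested) of 5.20 to 5.99 and 5.41 to 5.93, and erythroid markers (2 tested) of 8.08 to 8.27 and 7.42 to 8.36. The part of such cells in the rise of the replication genes was not tested.

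The second comparison asked whether the response depended on the diet. The measured change was smaller in ethanol-fed liver for most replication genes, but the difference passed for 1 gene. That count was 0 with quantile normalization, with no level filter, without the pool block and with any pool left out, and 8 with a variance trend and robust estimation. How many of all tested genes the variance trend called is not given here, so the 8 is a count only. The median change of the 50 genes was 1.38 and 1.88 in the pair-fed pools, untreated and AM21, and 0.98 and 1.22 in the ethanol-fed pools. The change in both pair-fed pools was above that in both ethanol-fed pools for 40 of 50 genes (17.7% of all genes), and the reverse held for 0 (18.7%). The smallest of the 4 changes was in an ethanol-fed pool for 48 of 50 (45.5%). The fitted difference, the change in ethanol-fed minus that in pair-fed pools, was below 0 in 48 of 50 genes, with a median of -0.62 against 0.00 over all genes. Of the 41 tested genes, 1 was called lower, where 0.460% of the tested genes were, and 0 were called higher (0.0690%). At an unadjusted p under 0.05, 27 of 41 were lower, against 6.44% of the tested genes, and 0 were higher, against 4.41%.

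**Figure D4:**
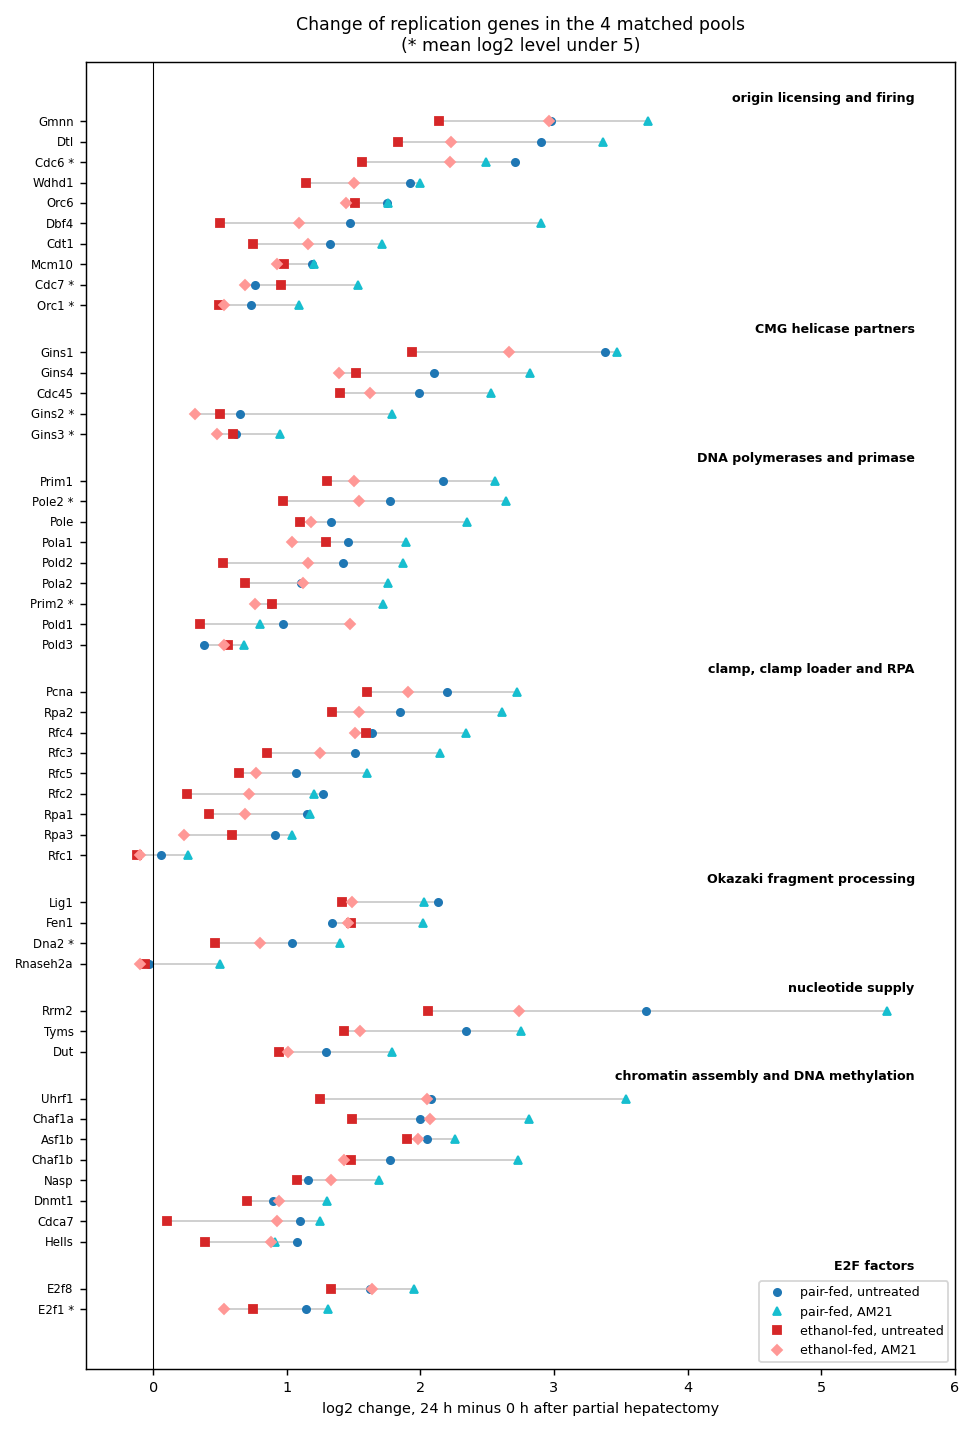
Log2 change from 0 h to 24 h (horizontal axis) of each of the 50 replication genes in the 4 pools, grouped by role. For most genes the pair-fed AM21 pool (light triangles) lies farthest right and the ethanol-fed untreated pool (dark squares) farthest left. Rrm2 has the widest spread, from 2.06 to 5.49.

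Rrm2 was the gene called. Its change was 3.69 and 5.49 with pair feeding and 2.06 and 2.74 with ethanol, a difference of -2.19 ± 0.28 (limma, adjusted p = 0.0182). Most of this lay in the level before the operation. At 0 h Rrm2 was higher in ethanol-fed liver by 1.27 in the untreated pair and by 2.38 in the AM21 pair, while at 24 h it was lower by 0.35 and 0.38. The second Rrm2 probe set read 5.58, 4.97, 6.73 and 6.11 at 0 h and 10.23, 10.90, 9.65 and 9.98 at 24 h, and gave -1.89 when put in place of the first (adjusted p = 0.00900, chosen after its values were seen). The 2 probe sets differ in level on every array, and whether either also reads a near-identical copy of the gene was not tested, so the level itself is uncertain.

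The Rrm2 call was fragile. It did not pass with quantile normalization (-2.10, adjusted p = 0.295), with no level filter (adjusted p = 0.115), with a level minimum of 6 (adjusted p = 0.0557), or with any 1 pool left out. Leaving out a pair-fed pool gave -3.09 (untreated) or -1.29 (AM21), and leaving out an ethanol-fed pool gave -1.85 (untreated) or -2.53 (AM21). Those fits have 1 residual degree of freedom and lack the AM21 term. In simulated data the tests of a difference in response called more false genes than the 0.05 threshold allows, so a single call has little weight.

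The next genes did not pass. Dbf4 differed by -1.39 ± 0.25 (adjusted p = 0.0625), Dtl by -1.11 ± 0.20 (0.0630), Tyms by -1.06 ± 0.20 (0.0835), Uhrf1 by -1.16 ± 0.23 (0.0894) and Gins1 by -1.13 ± 0.23 (0.0956). At the other end, the fitted differences of Pold1 and Pold3 were 0.03 and 0.01. By class, the medians of the difference with no level filter were -1.06 for nucleotide supply, -0.81 for the helicase partners, -0.63 for clamp, loader and RPA, -0.60 for licensing, -0.53 for polymerases, -0.50 for chromatin, -0.45 for Okazaki processing and -0.44 for the E2F factors.

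The same fit called 0 of 6 MCM2-7 genes, with a median of -0.81, and 13 of 24 genes of G2 and mitosis lower, with a median of -1.54. With no level filter 0 of 18166 genes were called lower. Of the further replication genes 0 of 28 were called (median -0.24), and of the E2F and G1 to S genes 2 of 20 were lower (median -0.37). A difference between these groups and the 50 genes was not tested.

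Levels at each time show where the pools parted, and they use the same arrays as the difference in change. At 24 h the fitted level was lower in ethanol-fed liver for 50 of 50 replication genes, with a median of -0.46 (0.00 over all genes). Both pair-fed arrays were above both ethanol-fed arrays for 40 of 50 genes (18.4% of all genes), and the reverse held for 0 (19.1%). In single pairs of arrays the median was -0.31 in untreated and -0.65 in AM21 rats. The level was higher in the ethanol-fed array for 5 of 50 genes in the untreated pair (Pole, E2f8, Gins2, Asf1b and Prim1) and for 1 of 50, Rfc1, in the AM21 pair. Over all genes the shares above 0 were 48.9% and 51.7%.

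None of these 24 h differences passed by itself. Limma called 0 of 41 replication genes and 0 of 8690 in all (0%), while 23 of 41 had an unadjusted p under 0.05 on the lower side, against 4.95% of the tested genes, and 0 on the higher side, against 6.59%. The smallest adjusted p-values belonged to 3 genes. Rfc3 read 5.61, 5.39, 5.51 and 5.36 at 0 h and 7.12, 7.54, 6.36 and 6.61 at 24 h, so its arrays were alike before PHx and parted by diet after it (-0.84 ± 0.13, adjusted p = 0.0974). Dtl, with the levels given above, differed by -0.86 ± 0.13 (adjusted p = 0.0974). Dbf4 read 5.05, 4.36, 5.25 and 5.18 at 0 h and 6.53, 7.27, 5.75 and 6.27 at 24 h (-0.89 ± 0.17, adjusted p = 0.138). Its 2 pair-fed arrays at 24 h were above both ethanol-fed arrays, and its lowest 0 h value was on the pair-fed AM21 array. Pole2, under the level minimum, had the largest fitted difference, -1.14.

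At 0 h the replication genes did not share a direction. The fitted difference was above 0 in 32 of 50, with a median of 0.08. Over all genes the median was -0.00, and 49.7% were above 0. Both ethanol-fed arrays were above both pair-fed arrays for 15 of 50 genes (20.2% of all genes), and the reverse held for 5 (19.2%). Rrm2 was called higher in ethanol-fed liver (1.82 ± 0.24, adjusted p = 0.0374), as were 0.598% of the tested genes. It was 1 of 41, and 0 were called lower (0.265%). At an unadjusted p under 0.05, 6 of 41 were higher, against 10.5% of the tested genes, and 2 lower, against 6.29%. Its call was lost without either AM21 0 h array (1.27, adjusted p = 0.0523 for each), with quantile normalization (1.75, adjusted p = 0.0758) and with no level filter (adjusted p = 0.128), and its second probe set gave 1.14 (adjusted p = 0.0290). Prim1 came next without passing (0.78 ± 0.15, adjusted p = 0.0770).

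The 0 h and 24 h differences by diet went in opposite directions for several genes, as fitted values that did not pass at either time. For Tyms they were 0.45 ± 0.13 and -0.61 ± 0.13, for Uhrf1 0.57 ± 0.18 and -0.59 ± 0.18, for Gins1 0.55 ± 0.29 and -0.58 ± 0.29, and for Dbf4 0.50 ± 0.17 and -0.89 ± 0.17. Dtl had 0.25 ± 0.13 and -0.86 ± 0.13. For the genes of G2 and mitosis the ethanol-fed minus pair-fed pair medians were 0.84 and 0.65 at 0 h, where 2 of 24 were called higher, and -0.38 and -1.14 at 24 h, where 0 of 24 were called.

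**Figure D5:**
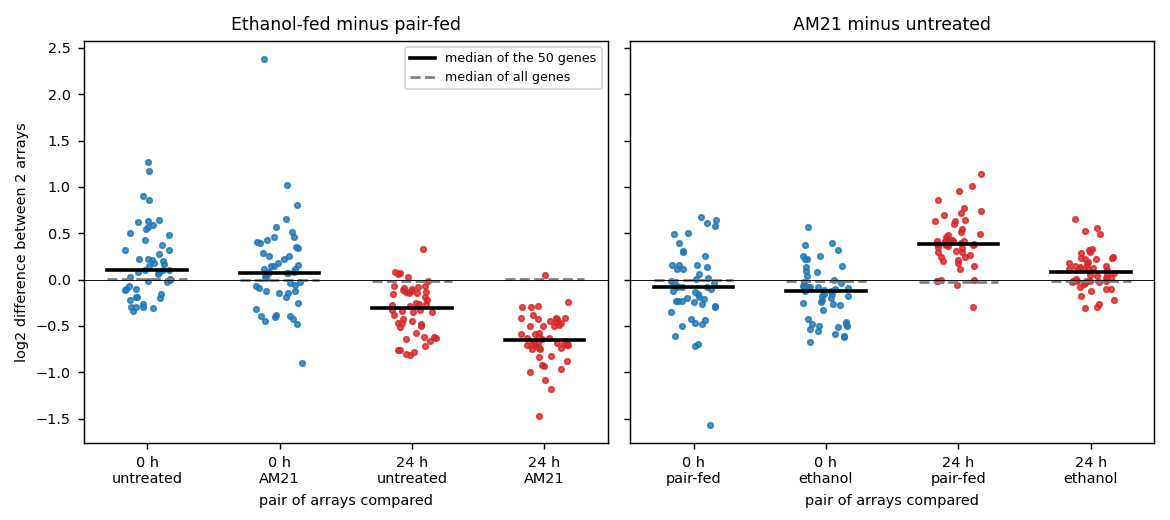
Log2 difference between 2 arrays (vertical axis) for each of the 50 replication genes (points) in 8 pairs of arrays, with the median of the 50 genes (black line) and of all genes (dashed line). In the ethanol-fed minus pair-fed panel the points scatter about 0 at 0 h (medians 0.10 and 0.07) and lie below 0 at 24 h (-0.31 and -0.65). In the AM21 minus untreated panel they lie above 0 in the 24 h pair-fed pair (0.39) and near 0 in the ethanol-fed pair (0.09).

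Kupffer cell markers read higher with ethanol. All 8 were higher in ethanol-fed liver in each of the 4 pairs of arrays, with pair medians of 0.53 and 0.36 at 0 h and 0.51 and 0.50 at 24 h, and 0 of 8 passed. The 5 tested endothelial markers were higher in 5 of 5 at 0 h and in 4 and 5 of 5 at 24 h. The 4 neutrophil and monocyte markers were higher with ethanol at 24 h in 3 and 4 of 4, and 0 of these endothelial, neutrophil and monocyte markers passed at either time. The hepatocyte markers had pair medians of -0.02 to 0.02. The part of such cells in the diet differences of the replication genes was not tested.

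The third comparison asked whether AM21 altered the levels of the replication genes or their response. None of the differences passed for any of the 41 tested genes. At 24 h AM21 was above untreated in 44 of 50 genes in pair-fed liver, with a median of 0.39, and in 32 of 50 in ethanol-fed liver, with a median of 0.09. A difference between the diets in this effect was not tested. Over all genes these shares were 45.8% and 47.0%, and the medians were -0.03 and -0.02. The pair-fed AM21 array was the highest of the 4 at 24 h for 44 of 50 genes (25.5% of all genes), and the change from 0 h was largest in that pool for 45 of 50 (24.1%). Both AM21 arrays were above both untreated arrays at 24 h for 6 of 50 genes (14.8%): Pola2, Prim1, Rfc4, Rpa1, Uhrf1 and E2f8. AM21 was above untreated within both diets for 29 of 50 (24.2%).

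The fitted AM21 effect at 24 h had a median of 0.26 over the 50 genes and was above 0 in 45. Over all genes the median was -0.02, and 45.2% were above 0. Limma called 0 of 41 (0% of the tested genes), and 6 of 41 had an unadjusted p under 0.05 on the higher side, against 2.61% of the tested genes, and 0 on the lower side, against 4.71%. Pola2, the regulatory subunit of polymerase alpha, had the smallest p. It read 4.70, 4.68, 4.48 and 4.70 at 0 h and 5.80, 6.44, 5.17 and 5.82 at 24 h, so AM21 was above untreated by 0.64 in pair-fed and 0.65 in ethanol-fed liver (0.65 ± 0.13, adjusted p = 0.346). Rfc4 read 5.58, 5.74, 5.29 and 5.86 at 0 h and 7.22, 8.08, 6.88 and 7.37 at 24 h (0.67 ± 0.16, adjusted p = 0.422). Its AM21 arrays were also the higher ones at 0 h. Dbf4 followed with 0.63 ± 0.17 (adjusted p = 0.519).

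At 0 h, 72 h after the first injection, the fitted AM21 effect was below 0 in 34 of 50 genes, with a median of -0.12. Over all genes the median was -0.00, and 49.5% were above 0. Limma called 0 of 41 (0%), and 4 of 41 had an unadjusted p under 0.05 on the lower side, against 3.28%, and 0 on the higher side, against 2.14%. The smallest p-values belonged to Chaf1a (-0.57 ± 0.12, adjusted p = 0.700), Rrm2 (-1.01 ± 0.24, adjusted p = 0.805) and Uhrf1 (-0.50 ± 0.18, adjusted p = 0.849). Chaf1a was lower with AM21 by 0.61 and 0.53 in the pair-fed and ethanol-fed pairs and Uhrf1 by 0.50 in each. For Rrm2 the pairs were unequal, 1.57 and 0.46 lower.

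The change after PHx was larger in the AM21 pools for 45 of 50 genes, with a median difference of 0.33. Over all genes the median was -0.02, and 47.1% were above 0. Limma called 0 of 41 (0%), and 8 of 41 had an unadjusted p under 0.05 on the higher side, against 3.16%, and 0 on the lower side, against 3.79%. Uhrf1 (1.12 ± 0.23, adjusted p = 0.261), Rrm2 (1.24 ± 0.28, adjusted p = 0.334) and Dbf4 (1.01 ± 0.25, adjusted p = 0.380) had the smallest p-values. The change was larger in the AM21 pool for 45 of 50 genes within pair-fed rats and for 35 of 50 within ethanol-fed rats. With the pair-fed AM21 pool left out, the fitted median over the 41 genes was -0.03, but that fit has no diet term and sets 1 ethanol-fed pool against the mean of a pair-fed and an ethanol-fed pool. The MCM2-7 genes were above untreated at 24 h by a median of 0.24 in pair-fed and 0.11 in ethanol-fed liver, and the genes of G2 and mitosis by 0.95 and 0.15.

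Markers of neutrophils and monocytes read lower with AM21 at 24 h. This held for 4 of the 4 tested markers in both diets, with pair medians of -1.46 and -0.86, and 0 of 4 passed. Their medians on the 24 h arrays were 7.55, 6.12, 7.64 and 6.92, lowest in the pair-fed AM21 pool, in which the replication genes were highest. The 2 erythroid markers had pair medians of -0.93 and -0.63, and 0 of 2 passed, while the hepatocyte markers had pair medians of -0.00 and 0.02. The part of these cells, and of cohort, in the AM21 values was not tested.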

How the data were processed

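The deposited values are log2 expression levels per probe set, made by the authors by RMA, with Expression Console named as the tool per the submitters' processing notes; no version is named in the sources used here. RMA brings all arrays to 1 distribution and so hides any shift that most genes have in common. Values ran from 0.481 to 13.3, with array medians from 4.11 to 4.23. Arrays have no read depth; the 4 pools limit the precision. All 8 columns were matched to samples, and 0 were left over. Of 36685 probe sets the platform table names 1 gene for 18511, several for 575 and none for 17599; 18394 were found by gene identifier in the GRCr8 RefSeq table, and 0 symbols changed. Of 18166 genes, 291 had several probe sets.

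Linear models were fitted in R 4.3.3 by limma 3.58.1 with moderated variances, and p-values were adjusted by Benjamini-Hochberg over the 8690 genes with a mean of at least 5 and a threshold of 0.05. The animal numbers are the same at both times, so each pool is a matched pair. The PHx response and its interactions with diet and AM21 had the pool as a fixed block, leaving 3 and 1 residual degrees of freedom. Diet and AM21 effects within each time came from 1 nested fit with 2 residual degrees of freedom. The planned random block could not be estimated there, and the 8 arrays were treated as independent, although each pool gave 2 of them. P-values of the PHx response set the change against its spread between the 4 pools, moderated towards a value shared by all genes. No combination of diet and AM21 had a second pool. In the diet and AM21 tests a gene's own spread is therefore how far the effects of diet and AM21 failed to add up. It is not a spread between like pools. Moderation replaced much of it by a value shared by all genes. In the tests of a difference in response many genes thus had the same SE of 0.20. Fits were tested on simulated data, where the interaction tests with 1 residual degree of freedom made more false calls than their threshold allows. They made 58 (diet) and 32 (AM21). The nested tests made 10 to 18, which is also above the threshold share, though by less. The simulated arrays were drawn independently, so they did not carry the pairing of arrays within a pool.

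The genes and lists were chosen with earlier results of these data known. Values on all arrays are given for the 2 largest changes per role, for every gene passing a diet or AM21 test or else for the 3 smallest p-values, and for genes not passing after PHx. The text gives the change for every one of the 50 genes. Alternatives tried were other level filters, probe set rules, scalings, variance settings, models without the block, and single pools or arrays left out; the second Rrm2 probe set was added after seeing the data.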

Additional observations from a re-analysis of the deposited data

Results flagged for a closer look

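The response of Rrm2, the small subunit of ribonucleotide reductase, differed between the diets in the test of the difference itself. Its change was smaller in ethanol-fed than in pair-fed pools by a log2 difference of -2.19 (limma, adjusted p = 0.0182). The call was fragile. In limma it did not pass with quantile normalization (adjusted p = 0.295), with no level filter (0.115) or without the pool block (0.130), and the other limits given above apply.

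For E2f1, a transcriptional activator of S phase genes, both pairs of arrays were slightly higher in ethanol-fed liver at 0 h (0.03 and 0.15) and lower at 24 h (-0.35 and -0.63). The 24 h difference minus the 0 h difference was -0.58. The 0 h arrays still overlapped between the diets, with 4.37 in pair-fed AM21 and 4.15 in ethanol-fed untreated liver. Only the differences within pairs had opposite signs at the 2 times. Tyms, Dtl and Dbf4 were among the other genes with the same signs in both pairs. E2f1 lay under the level minimum, and in the fit with no level filter the difference did not pass (-0.58 ± 0.25, limma, adjusted p = 0.659).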

How the results depend on the processing

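The rise after PHx kept its direction in all 39 called genes under every alternative run. Without the replicate block, with the other scalings (quantile, centring), probe set rules or variance settings, 41 of 41 tested genes kept their call or lack of one, apart from a sign change of Rfc1, which had not passed, to -0.03 on centring. Ethanol-fed pools alone gave -0.11 for Rfc1 and -0.08 for Rnaseh2a. Leaving out single pools gave -0.05 to 0.08 for Rfc1 and -0.06 to 0.14 for Rnaseh2a. A level minimum of 6 leaves 23 of the 41 genes by construction. Of these, 22 rose and 22 did not overlap between times. Both pair-fed 24 h arrays were above both ethanol-fed in 19, and both pair-fed changes were above both ethanol-fed in 20. The change was largest in the pair-fed AM21 pool for 20. Shares over all genes at this minimum are not given here, so these are counts only.

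For the difference in response by diet, the count called lower was 0 without the replicate block, with quantile normalization, with no level filter, with a minimum of 6, without the AM21 term and without each pool, and 8 with a variance trend and robust estimation. For the diet effect at 0 h the count called higher was 0 with quantile normalization, with no filter and averaged over both times, 2 with the variance trend, and 0 to 1 with single arrays left out. Calls over all tested genes with the variance trend are not given here, so the 8 and the 2 are counts only. Averaged over both times, the 0 h medians turned to -0.19 for diet and 0.04 for AM21, and Uhrf1 with AM21 to 0.06, since that average mixes in the 24 h arrays. With single pools left out, the median difference in response by AM21 ran from -0.03 (without the pair-fed AM21 pool) to 0.68, and that of Rrm2 from -0.14 to 2.62; these fits lack the diet term, so the AM21 contrast in them mixes in diet. Otherwise the cause was not tested. Other scalings moved the median of all tested genes by less than 0.1. RMA values carry no detection call, so changes of genes under a level of 5 at 0 h have uncertain size, and 1 array per group and time limits every diet and AM21 comparison.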
